A study of Mus musculus with 20 samples.

Results

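The 36 genes described here encode collagens, other proteins of the extracellular matrix, the enzymes that fold and crosslink collagen, and surface and contractile proteins used to mark fibroblasts. They were taken as a given list of gene symbols, chosen with earlier results of these data known. Comparisons of the members with all other genes below carry that limit. The symbols were matched by Entrez identifier, and all 36 were found among the 36528 gene models of each library. All 36 were among the 15390 genes with enough counts to be tested, so no member was lost to the filter on low counts.

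The data were RNA sequencing libraries of macrophages and of monocytes sorted from tumours formed by MC38, a mouse colon carcinoma cell line. The RNA was taken 7 days after treatment began. Each cell type came from control tumours and from tumours treated with an antibody against PD-L1, a ligand that restrains T cells, which gave 4 groups of 5 libraries: control macrophages, anti-PD-L1 macrophages, control monocytes and anti-PD-L1 monocytes. For the control agent, mouse strain and age, antibody dose and sort markers the sources used here give nothing. No label ties a library to an animal of its own. The p-values below therefore reflect how much these libraries varied, and that variation may be technical. By the sample numbers in the library titles, every control library came before every treated library, so treatment and the order of the samples cannot be told apart. Libraries held 30191509 to 36514133 counts. Summed macrophage markers lay at 21200 to 35000 CPM (counts scaled to library size) in the macrophage libraries and 6600 to 10100 in the monocyte libraries, and summed monocyte markers at 272 to 515 and 4400 to 10700, which matched the labels. Libraries are numbered 1 to 5 within a group as names only.

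Fibroblasts secrete procollagen chains that are folded in the endoplasmic reticulum with the chaperone Hsp47, trimmed outside the cell and crosslinked by lysyl oxidases into fibrils. Fibrils of collagens I, III and V carry small proteoglycans such as decorin on their surface, collagen VI forms a beaded network around them, and collagen IV makes the sheet of the basement membrane. In tumours most of this matrix is made by cancer-associated fibroblasts and pericytes, which carry the PDGF receptors. Macrophages and monocytes make some matrix proteins of their own and also take up collagen and dying cells. In bulk libraries such as these, fewer cells of a type and less RNA per cell cannot be told apart, and neither can RNA made by the sorted cells from RNA of other cells that came with them.

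The stretch of 250 bases before the RefSeq start of 4 members is shown because 2 of them (Col3a1, the most abundant member, and Sparc) followed the common course of the list closely and the other 2 (Col1a2 and Igfbp7) departed from it. RefSeq promoter sequence of GRCm38.p6 was at hand for 23 of the 36 members. Capitals mark the CCAAT box (CCAAT), the core of a TATA box (TATAAA) and the core of a GC box (GGGCGG), searched on both strands, so that a match on the other strand appears as its reverse complement.
Col3a1, chr1:45311288-45311537, plus strand: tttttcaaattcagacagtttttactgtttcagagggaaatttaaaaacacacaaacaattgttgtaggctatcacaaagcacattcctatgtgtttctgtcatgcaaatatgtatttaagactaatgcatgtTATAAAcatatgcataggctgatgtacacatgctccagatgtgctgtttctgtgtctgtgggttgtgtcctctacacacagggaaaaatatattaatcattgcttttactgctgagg
Sparc, chr11:55420081-55420330, minus strand: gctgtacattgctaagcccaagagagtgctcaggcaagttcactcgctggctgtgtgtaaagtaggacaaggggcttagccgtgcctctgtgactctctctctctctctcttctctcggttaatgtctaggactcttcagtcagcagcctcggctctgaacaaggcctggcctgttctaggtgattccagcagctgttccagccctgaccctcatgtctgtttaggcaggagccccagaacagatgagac
Col1a2, chr6:4505368-4505617, plus strand: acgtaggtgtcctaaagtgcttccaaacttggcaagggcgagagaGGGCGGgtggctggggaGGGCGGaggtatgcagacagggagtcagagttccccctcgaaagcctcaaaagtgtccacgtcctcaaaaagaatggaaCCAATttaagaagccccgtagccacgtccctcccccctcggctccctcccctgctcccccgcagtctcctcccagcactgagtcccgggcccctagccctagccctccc
Igfbp7, chr5:77408046-77408295, minus strand: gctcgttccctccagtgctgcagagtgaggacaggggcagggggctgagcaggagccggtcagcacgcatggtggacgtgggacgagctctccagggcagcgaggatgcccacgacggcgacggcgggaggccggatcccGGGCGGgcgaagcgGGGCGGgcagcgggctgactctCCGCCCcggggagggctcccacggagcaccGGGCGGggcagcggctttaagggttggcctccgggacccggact
TATAAA was present in 12.4% of 32851 RefSeq windows of this length and in 4 of the 23 members (Col3a1, Postn, Thbs2 and Igfbp6). CCAAT was present in 33.8% of all windows and in 6 members. GGGCGG was present in 32.7% of all windows and in 12 members. These were Col1a2, Col5a1, Col4a2, Col18a1, Col6a2, Bgn, Fbn1, Fbln1, Fbln2, Igfbp7, Serpinh1 and Pcolce, most of which followed the common course. The Sparc window held none of the 3 words. A match is a description of letters in these windows.

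Several members are neighbours in the genome (RefSeq annotation of GRCm38.p6). Col3a1 (Entrez 12825) spans chr1:45311538-45349706 and Col5a2 (12832) follows at chr1:45374331-45503282. Col4a1 (12826, chr8:11198423-11312889) and Col4a2 (12827, chr8:11312805-11449287), which are read in opposite directions, overlap at their starts. Col6a2 (12834, chr10:76595756-76623630) and Col6a1 (12833, chr10:76708792-76726044) lie close to each other, as do Dcn (13179, chr10:97479500-97518163) and Lum (17022, chr10:97565501-97572703). Of the members that departed most, Thy1 (21838, chr9:44043384-44048579) and Tagln (21345, chr9:45929628-45936058) share a chromosome, while Col15a1 (12819) lies at chr4:47207655-47313167, Igfbp7 (29817) at chr5:77349240-77408045 and Acta2 (11475) at chr19:34240336-34255585. The 2 chains of collagen I, Col1a1 (12842, chr11:94936224-94953042) and Col1a2 (12843, chr6:4505618-4541543), are on different chromosomes.

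The members made up a small and very unequal part of the libraries. Their share of all counts ranged from 0.0110% in anti-PD-L1 macrophage library 4 to 0.634% in control monocyte library 3. The median share was 0.235% in control macrophages (lowest 0.0190%, highest 0.421%) and 0.0165% in anti-PD-L1 macrophages (0.0110% to 0.0611%). It was 0.317% in control monocytes (0.0498% to 0.634%) and 0.0261% in anti-PD-L1 monocytes (0.0125% to 0.0883%). In both cell types the treated libraries thus sat mostly below the controls, and in both the ranges overlapped.

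The mean log2 CPM over the 36 members, a measure that gives each gene the same weight, showed which libraries caused the overlap. In control macrophages it was 4.11, 2.52, 3.80, 1.002 and 4.38 in libraries 1 to 5, and in anti-PD-L1 macrophages 1.47, 2.31, 0.68, 0.73 and 0.84. In control monocytes it was 4.26, 3.54, 4.94, 4.37 and 2.28, and in anti-PD-L1 monocytes 0.95, 1.41, 2.79, 1.65 and 2.76. Control macrophage library 4 and control monocyte library 5 lay lowest among their controls, and each held the lowest value of its group for 32 of the 36 members. Anti-PD-L1 macrophage library 2 lay highest of its group, with the highest value for 27 members, and anti-PD-L1 monocyte library 3 for 19. Control monocyte library 3 held the highest value of all 20 libraries for 25 members.

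Macrophage and monocyte libraries with consecutive sample numbers in their titles mostly moved together. The 2 low control libraries were such neighbours, as were the 2 high treated libraries just named. The monocyte library lay above its macrophage neighbour in 10 of 10 pairs, by 0.71 ± 0.55 (SD, n = 10 pairs) on the mean log2 CPM, with a smallest difference of 0.18 and a largest of 1.93. The labels do not state what neighbouring numbers share.

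**Figure D1:**
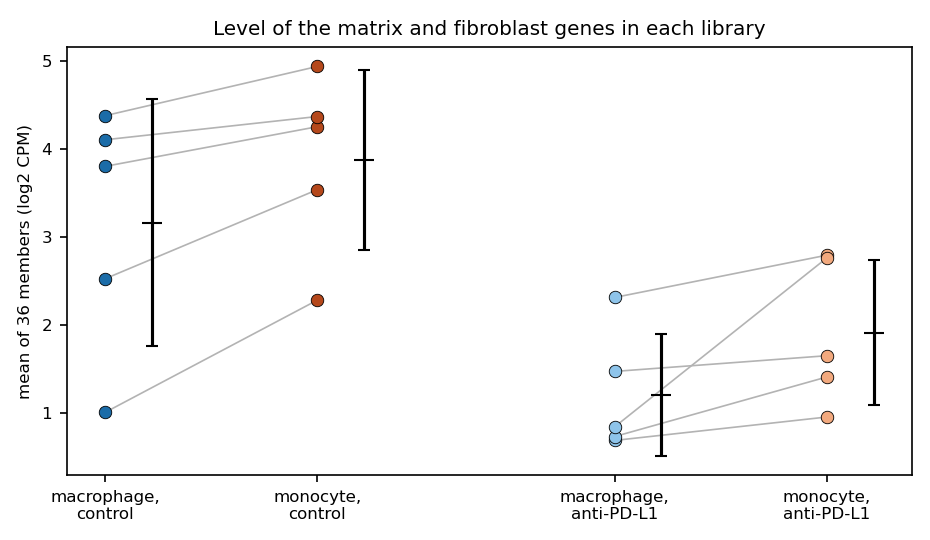
Mean log2 CPM of the 36 members in each library (points), by group, with grey lines joining macrophage and monocyte libraries of consecutive sample numbers and bars giving the group mean ± SD (n = 5). The treated libraries lie between 0.68 and 2.79 and the control libraries between 1.002 and 4.94, and every line rises from macrophage to monocyte.

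Most members followed one course inside the groups. For each member, the deviations of its log2 CPM from its own group means were set against the same deviations of the mean of the other 35 members, which leaves out every difference between groups. A median of 86.99% of a member's within-group variance lay on that line, against a median of 11.08% for the 15354 other tested genes. The limits used for following the course were a slope of at least 0.5 and at least 50% of the variance on the line. They were met by 28 of the 36 members and by 6.79% of the other tested genes. Over 85% of the variance lay on the line for 19 members, and the first principal component of the members' deviations held 84.68%. These are descriptions over 20 libraries, with no test, and the members share each library's composition.

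The members closest to the line came from different roles. Sparc, a secreted matricellular protein that binds collagen, had 96.67% of its variance on the line. Serpinh1, which encodes Hsp47, had 95.34%, and Col3a1, the chain of collagen III, 95.10%. Both collagen V chains (Col5a1 94.80%, Col5a2 93.78%), both collagen IV chains (Col4a1 94.18%, Col4a2 94.22%) and the procollagen C-proteinase enhancer Pcolce (93.43%) followed. Of the PDGF receptors, Pdgfra had 93.52% and Pdgfrb 91.29%. Slopes ranged from 0.67 to 1.55 among the 28 members, so libraries that were high for one tended to be high for the others, to unequal degrees. The 3 collagen VI chains were among the steepest, at 1.55 (Col6a1), 1.52 (Col6a2) and 1.49 (Col6a3).

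The 8 members outside those limits were Col1a2, Col15a1, Col12a1, Igfbp7, Fap, Thy1, Acta2 and Tagln. Of these, 3 sat near a limit. Col1a2 had a slope of 0.73 and 49.23% on the line, Fap 0.46 and 60.72%, and Col12a1 0.63 and 35.10%. The other 5 were far from it. Igfbp7 had a slope of 0.21, Thy1 of 0.06, Acta2 of -0.10, Tagln of -0.10 and Col15a1 of -0.11, and the share on the line was 0.69% to 21.76%. Just inside the limits were Fbln2, with 57.13% on the line, and Loxl2, with 60.46%. Leaving out each library in turn gave a median share of 80.14% to 88.68% and 7 to 9 departing members, and Col15a1, Igfbp7, Thy1, Acta2 and Tagln departed in every one of those 20 fits.

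**Figure D2:**
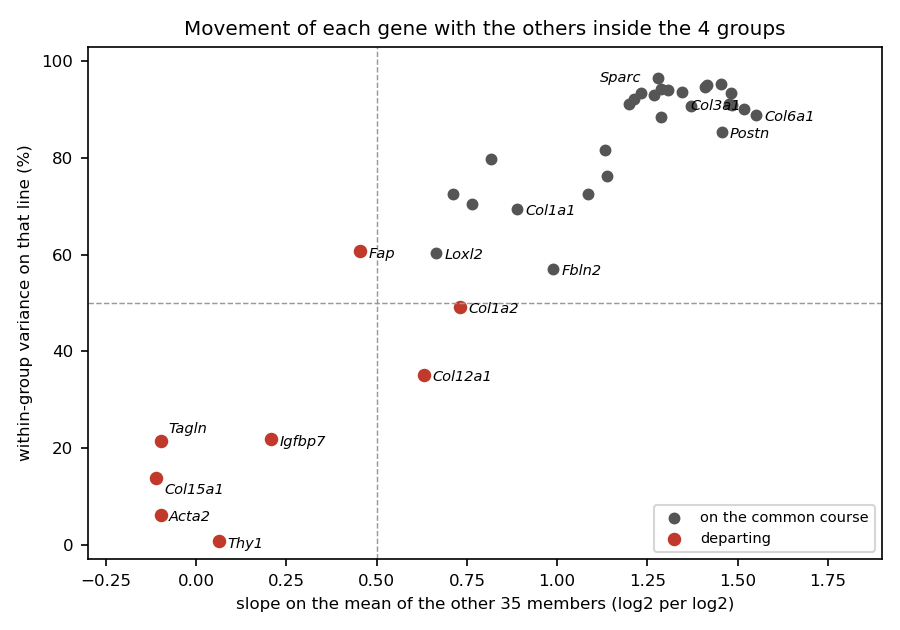
Slope of each member on the mean of the other 35 inside the groups (x axis, log2 per log2) and the percentage of its within-group variance on that line (y axis), over 20 libraries, with dashed lines at the limits of 0.5 and 50%. The 28 members that met both limits are grey and the 8 that did not are red, 5 of them far to the lower left.

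Treatment was compared in each cell type with edgeR's quasi-likelihood test, with p-values adjusted by Benjamini-Hochberg over all 15390 genes and a threshold of 0.05. In macrophages 19 of 36 members were lower in treated tumours and 0 higher, where 2.92% of all tested genes were lower and 1.73% higher. The median log2 fold change of the 36 was -2.72, beside -0.01 over all tested genes. In monocytes 24 were lower and 0 higher, where 15.4% of all tested genes were lower and 9.92% higher, and the median was -2.30 beside 0.02. All 19 members called in macrophages were also called in monocytes, so the shared calls were 100% of the macrophage and 79.2% of the monocyte calls. The 5 called in monocytes alone were Col12a1, Dcn, Bgn, Igfbp7 and Serpinh1, and 12 were called in neither cell type.

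The macrophage calls lay close to the threshold, with adjusted p between 0.0356 and 0.0487, and they were not stable. Limma-voom called 0 of the 36 in macrophages (smallest adjusted p = 0.0762, 23 with an unadjusted p under 0.05), and limma-voom with neighbouring libraries as a replicate block called 2, Col3a1 (adjusted p = 0.0414) and Col6a1 (0.0484), with the other 17 at 0.0544 (Col6a2) to 0.179 (Fbln1). DESeq2 called 25. The count fell to 0 without control library 1 or 5 or treated library 1, 3 or 4 of the macrophages. There 26 to 30 members still had an unadjusted p under 0.05, as had 3056 to 3463 of 15514 to 15596 genes tested. Those 5 fits called few genes of any kind, 0.0898% to 0.796% of all genes tested, beside 4.65% with all libraries, and limma-voom called 1.24%, the blocked fit 1.58% and DESeq2 12.2%. It was 1 without treated macrophage library 5 or control monocyte library 1, 3 without control macrophage library 3, 9 without control monocyte library 2, 10 without treated monocyte library 4 or 5, and 28 without control macrophage library 4, where 12.4% of all genes were called. In monocytes, limma-voom called 17, the blocked fit 21 and DESeq2 25, beside 18.1%, 21.4% and 28.2% of all genes tested. The 3 monocyte calls lost in the blocked fit were Fbln1 (adjusted p = 0.0519), Lox (0.0806) and Pdgfrb (0.0505). The monocyte count was 9 without control monocyte library 3 and 15 without treated monocyte library 1, 2 or 4, where the share of all genes called was 12.2% and 15.7% to 16.6%, beside 25.3% with all libraries.

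No member had all 5 treated macrophage libraries below all 5 controls, a pattern held by 2.83% of tested genes. In monocytes 1 member had it, Igfbp6, where 2.13% of tested genes did. The difference between the 2 treatment effects, tested as an interaction with edgeR, passed for 0 of 36 members (smallest adjusted p = 0.892, 0 with an unadjusted p under 0.05) and for 0% of all tested genes. DESeq2, limma-voom and the blocked fit also called 0 members for that difference, with 0, 0 and 1 at an unadjusted p under 0.05.

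**Figure D3:**
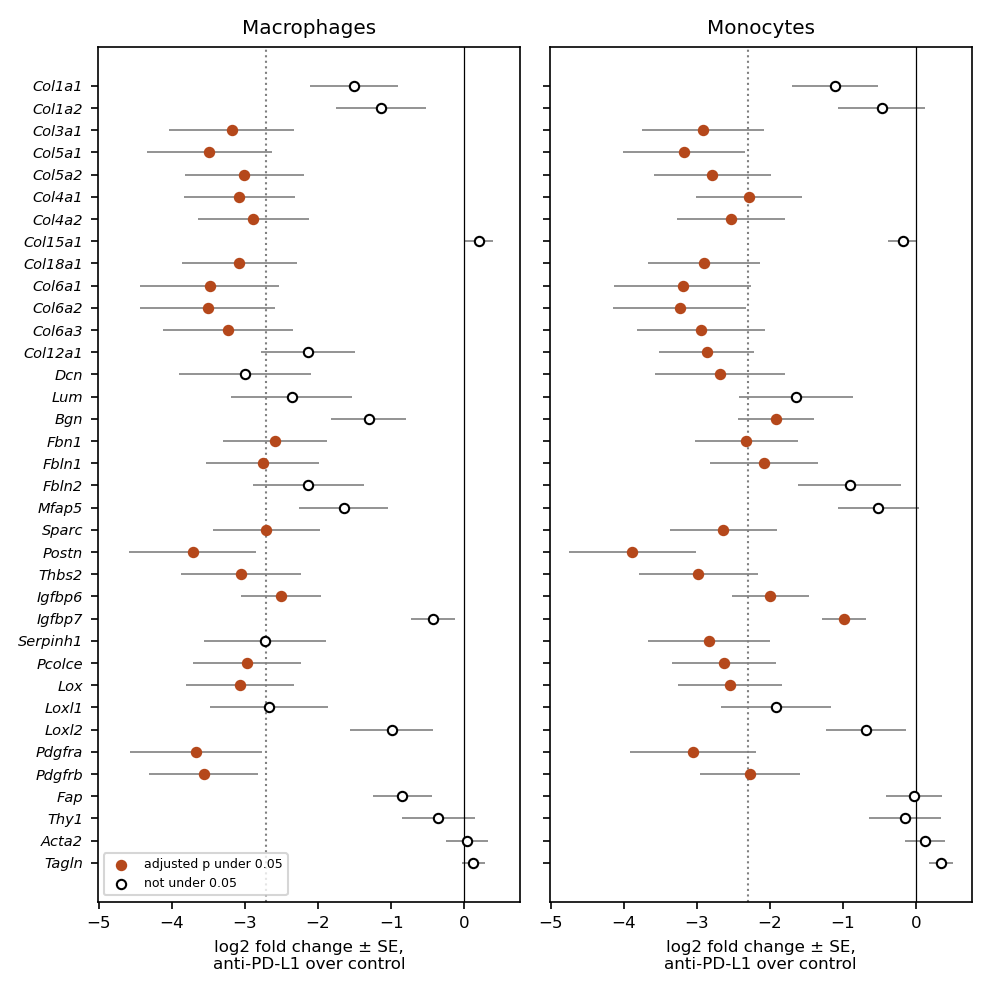
Log2 fold change of each member, anti-PD-L1 over control, ± SE, in macrophages (left) and monocytes (right), from edgeR's fit over 20 libraries, with filled points for adjusted p under 0.05 and a dotted line at the members' median (-2.72 and -2.30). Points of Col15a1, Acta2 and Tagln lie near 0 in both cell types, and those of Col1a1 and Col1a2 lie between 0 and the median.

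Of the fibrillar collagens, Col3a1, Col5a1 and Col5a2 were lower with treatment in both cell types, and Col1a1 and Col1a2, the 2 chains of collagen I, passed the test in neither. The difference between the chains' fold changes was not tested. Col3a1 read 676, 215, 641, 43.1 and 1118 CPM in control macrophages and 39.4, 178, 27.5, 18.2 and 34.2 in treated ones. It read 967, 532, 1767, 963 and 184 CPM in control monocytes and 26.3, 40.6, 258, 67.8 and 192 in treated ones. Control macrophage library 4 lay among the treated macrophage libraries, and treated monocyte libraries 3 and 5 lay above control monocyte library 5. The log2 fold change was -3.18 ± 0.85 (SE, adjusted p = 0.0456) in macrophages and -2.92 ± 0.84 (adjusted p = 0.0179) in monocytes.

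Collagen I was far below collagen III in these libraries, although it is the main collagen of most connective tissue. On the deposited length-scaled values (nRPKM), Col3a1 averaged 70.0 over the 20 libraries, Col1a1 1.81 and Col1a2 1.45. Whether the counting of uniquely aligned reads affected the collagen I genes was not tested. The ratio of Col3a1 to Col1a1 nRPKM ranged from 3.21 in anti-PD-L1 monocyte library 2 to 66.3 in control monocyte library 4. It was 43.2 ± 17.0 (SD, n = 5) in control and 12.9 ± 9.48 in treated macrophages, and 49.5 ± 11.9 in control and 17.5 ± 16.1 in treated monocytes, with overlapping ranges in both. Over the 20 libraries the nRPKM ratio of Col6a1 to Col6a2 ranged from 2.02 to 2.63, of Col6a3 to Col6a1 from 0.0991 to 0.347, of Col5a1 to Col5a2 from 0.441 to 1.18 and of Col1a1 to Col1a2 from 0.78 to 2.61.

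Col1a2 read 5.22, 7.75, 7.10, 1.76 and 17.1 CPM in control macrophages and 3.54, 6.404, 2.83, 2.95 and 1.96 in treated ones. In monocytes it read 11.3, 13.03, 23.2, 5.15 and 2.81 CPM in controls and 2.14, 11.5, 4.71, 4.11 and 17.6 in treated libraries. Treated monocyte library 5 held the second highest Col1a2 value of the 20, while its Col3a1 value was among the middle ones. The log2 fold change of Col1a2 was -1.14 ± 0.61 (adjusted p = 0.273) in macrophages and -0.47 ± 0.60 (adjusted p = 0.595) in monocytes. Its partner chain Col1a1 gave -1.51 ± 0.60 (adjusted p = 0.130) and -1.11 ± 0.59 (adjusted p = 0.175).

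Basement membrane collagens moved with the fibrillar ones, apart from Col15a1. Col4a1, Col4a2 and Col18a1, the source of endostatin, were lower with treatment in both cell types (log2 fold change -3.08 to -2.29). Col4a1 read 139, 25.6, 111, 6.08 and 178 CPM in control macrophages and 10.6, 24.8, 5.92, 4.58 and 8.90 in treated ones. The monocyte values were 153, 76.2, 284, 169 and 28.5 CPM in controls and 16.1, 13.8, 61.3, 21.9 and 32.5 in treated libraries. The 2 chains that pair in the collagen IV trimer, Col4a1 and Col4a2, had an nRPKM ratio of 0.792 to 1.14 in treated macrophages and 1.23 to 1.83 in treated monocytes, with no overlap. In the controls the ratio was 0.878 to 1.27 and 1.12 to 1.58, with overlap. The share of gene pairs whose ratio separates the cell types was not counted. Of single tested genes, edgeR called 53.9% between the cell types in treated tumours. The start regions of Col4a1 and Col4a2 overlap, and reads there could be assigned to either gene.

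Col15a1, a collagen that links basement membranes to the fibrils beneath, had a pattern of its own. It read 9.80, 17.8, 15.8, 20.02 and 15.4 CPM in control and 18.0, 17.4, 18.5, 15.1 and 21.4 in treated macrophages. Monocyte libraries held 4.90, 5.89, 5.07, 6.46 and 4.28 CPM in controls and 4.63, 4.57, 3.18, 7.01 and 4.04 in treated libraries. Every macrophage library lay above every monocyte library, a separation whose share over all tested genes was not counted. Control macrophage library 4, the lowest control for most of the list, held the highest Col15a1 value of its group. The difference of macrophages from monocytes was 1.57 ± 0.20 in log2 (adjusted p = 2.96e-06) in control tumours and 1.95 ± 0.20 (adjusted p = 1.58e-07) in treated tumours. The treatment effect was 0.20 ± 0.19 (adjusted p = 0.571) in macrophages and -0.18 ± 0.20 (adjusted p = 0.519) in monocytes. Several predicted gene models overlap Col15a1, so some of its reads may belong to them.

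The 3 collagen VI chains were lower with treatment in both cell types, with log2 fold changes between -3.51 and -2.94. Col6a1 read 351, 75.8, 219, 13.9 and 370 CPM in control macrophages and 11.9, 55.8, 6.397, 4.36 and 14.4 in treated ones. It read 291, 177, 618, 425 and 47.0 CPM in control monocytes and 7.83, 5.13, 96.1, 19.3 and 42.0 in treated ones. The lowest control and the highest treated library crossed again in both cell types.

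Col12a1, a collagen that sits on the surface of fibrils, was scarce. It read 1.11, 1.05, 1.25, 0.288 and 1.65 CPM in control and 0.378, 0.302, 0.225, 0.0922 and 0.205 in treated macrophages. Among monocytes, the values were 1.97, 2.04, 3.42, 2.10 and 0.200 CPM in controls and 0.485, 0.314, 0.218, 0 and 0.308 in treated libraries. It was not counted in treated monocyte library 4, where 3 counts correspond to 0.0903 CPM. Control library 5 of the monocytes fell among the treated libraries and the other 4 controls did not. The log2 fold change was -2.87 ± 0.65 (adjusted p = 0.00655) in monocytes and -2.14 ± 0.64 (adjusted p = 0.0564) in macrophages.

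Among the small leucine-rich proteoglycans, Dcn (decorin) and Bgn (biglycan) were lower with treatment in monocytes, and Lum (lumican) passed in neither cell type. None of the 3 passed in macrophages. Dcn read 275, 52.0, 146, 11.3 and 205 CPM in control macrophages and 10.8, 56.0, 5.72, 5.96 and 8.23 in treated ones. In the monocyte libraries it stood at 182, 96.5, 317, 296 and 41.7 CPM in controls and 5.63, 5.96, 68.2, 12.8 and 52.7 in treated libraries. Treated macrophage library 2 exceeded control libraries 2 and 4. The log2 fold change of Dcn was -2.997 ± 0.90 (adjusted p = 0.0561) in macrophages and -2.68 ± 0.89 (adjusted p = 0.0332) in monocytes. Bgn gave -1.31 ± 0.52 (adjusted p = 0.126) and -1.92 ± 0.52 (adjusted p = 0.014), and Lum -2.36 ± 0.83 (adjusted p = 0.0867) and -1.64 ± 0.79 (adjusted p = 0.130).

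Of the elastic fibre genes, Fbn1 (fibrillin-1) and Fbln1 (fibulin-1) were lower in both cell types in edgeR's fit, and Fbln2 and Mfap5, which binds microfibrils, passed in neither. In the blocked fit Fbln1 passed in neither cell type (adjusted p = 0.179 in macrophages and 0.0519 in monocytes). Fbn1 passed there in monocytes only (adjusted p = 0.101 in macrophages and 0.0287 in monocytes). Fbn1 read 121, 25.9, 117, 8.59 and 175 CPM in control and 18.5, 30.6, 10.1, 8.05 and 7.35 in treated macrophages. In monocytes it read 137, 59.3, 246, 135 and 24.4 CPM in controls and 11.4, 12.4, 52.1, 22.8 and 21.6 in treated libraries. Only treated monocyte library 3 rose above the lowest monocyte control, and in macrophages 3 treated libraries lay above control library 4. Its log2 fold change was -2.59 ± 0.71 (adjusted p = 0.0475) and -2.32 ± 0.70 (adjusted p = 0.0224). In monocytes Fbln2 gave -0.91 ± 0.71 (adjusted p = 0.362) and Mfap5 -0.52 ± 0.55 (adjusted p = 0.517) in edgeR's fit. In macrophages Fbln2 gave -2.13 ± 0.76 (adjusted p = 0.091) and Mfap5 -1.65 ± 0.61 (adjusted p = 0.102). Differences between these genes were not tested.

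Of the matricellular genes, Postn, periostin, had the most negative fold change of the list in edgeR's fit, in monocytes (-3.88 ± 0.87, adjusted p = 0.00629) and in macrophages (-3.71 ± 0.87, adjusted p = 0.0396). In the blocked fit Postn gave -3.37 in monocytes and -2.90 in macrophages. Col6a1 (-3.496) and Col6a2 (-3.45) lay lower in monocytes. In macrophages Col3a1, Col5a1, Col5a2, Col6a1, Col6a2 (-3.39), Dcn, Pdgfra and Pdgfrb lay lower. Thbs2, a thrombospondin that restrains vessel growth, gave -2.98 ± 0.81 in monocytes (adjusted p = 0.0143) and -3.06 ± 0.82 in macrophages (adjusted p = 0.0456). Sparc read 227, 41.1, 134, 10.8 and 163 CPM in control macrophages and 19.3, 41.4, 9.51, 9.22 and 8.78 in treated ones. The monocyte values were 174, 85.8, 258, 271 and 31.2 CPM in controls and 9.29, 14.4, 52.4, 17.4 and 38.2 in treated libraries. In each cell type the lowest control stood below the 2 highest treated libraries. Sparc gave -2.71 ± 0.73 (adjusted p = 0.0458) in macrophages and -2.64 ± 0.73 (adjusted p = 0.0151) in monocytes.

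Both members named as insulin-like growth factor binding proteins were lower in treated monocytes, and only Igfbp6 passed in macrophages. The difference between the 2 genes was not tested. Igfbp6 read 17.1, 11.4, 26.1, 29.8 and 9.89 CPM in control and 4.46, 2.06, 6.99, 4.40 and 5.75 in treated monocytes, with no overlap, as did 2.13% of tested genes. Its log2 fold change was -1.99 ± 0.53 (adjusted p = 0.0127), and in macrophages -2.50 ± 0.55 (adjusted p = 0.0386), where control library 4 overlapped the treated ones. Igfbp7 read 3.87, 2.48, 2.37, 1.47 and 1.77 CPM in control and 3.03, 1.68, 1.43, 1.08 and 1.70 in treated macrophages. Monocyte libraries held 3.52, 3.63, 3.30, 3.03 and 2.91 CPM in controls and 1.07, 1.46, 1.37, 1.37 and 2.98 in treated libraries. Its 5 monocyte controls lay close together, and 1 treated library, number 5, reached them. Igfbp7 was lower in treated monocytes (-0.99 ± 0.30, adjusted p = 0.0238), and in macrophages the fold change was -0.42 ± 0.30 (adjusted p = 0.433). Igfbp7 overlaps Polr2b, a subunit of RNA polymerase II with 80.5 to 88.2 CPM on average in the 4 groups, and it is not known whether the counting used strand.

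Among the genes of collagen folding, trimming and crosslinking, Pcolce and the lysyl oxidase Lox were lower in both cell types in edgeR's fit. In the blocked fit Lox passed in neither (adjusted p = 0.142 in macrophages and 0.0806 in monocytes). Pcolce passed there in monocytes only (adjusted p = 0.117 in macrophages and 0.0244 in monocytes). Serpinh1 was lower in monocytes (-2.83 ± 0.83, adjusted p = 0.0195) and gave -2.72 ± 0.83 (adjusted p = 0.0575) in macrophages. It read 160, 41.6, 134, 8.30 and 193 CPM in control and 13.4, 44.8, 6.93, 6.42 and 10.01 in treated macrophages. Among monocytes, the values were 195, 86.1, 315, 218 and 22.1 CPM in controls and 6.86, 6.62, 60.7, 15.8 and 27.2 in treated libraries. In macrophages 3 treated libraries exceeded control library 4, and in monocytes 2 exceeded control library 5. The related oxidases Loxl1 and Loxl2 passed in neither cell type, and differences between the oxidases were not tested. Loxl1 gave -2.67 ± 0.80 (adjusted p = 0.056) in macrophages and -1.92 ± 0.75 (adjusted p = 0.0655) in monocytes, and Loxl2, at under 1 CPM in every library, -0.99 ± 0.57 (adjusted p = 0.310) and -0.69 ± 0.55 (adjusted p = 0.374).

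The fibroblast surface proteins did not move as a set. The receptors Pdgfra and Pdgfrb were lower with treatment in both cell types, and Fap, a membrane protease, and Thy1, a small glycoprotein also found on T cells, in neither. Pdgfra read 31.2, 7.86, 25.2, 1.61 and 50.7 CPM in control and 1.24, 4.996, 1.24, 0.953 and 0.878 in treated macrophages. In the monocyte libraries it stood at 30.2, 16.6, 78.3, 44.7 and 6.28 CPM in controls and 0.874, 0.802, 10.1, 2.09 and 7.32 in treated libraries. In macrophages 4 of 5 treated libraries lay below the lowest control, and in monocytes 3 of 5. The log2 fold change was -3.66 ± 0.90 (adjusted p = 0.04) and -3.06 ± 0.86 (adjusted p = 0.0164). Pdgfrb had the smallest adjusted p of the list in macrophages (-3.56 ± 0.74, adjusted p = 0.0356) and gave -2.28 ± 0.68 (adjusted p = 0.0214) in monocytes.

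Fap read 1.38, 0.712, 0.650, 0.288 and 1.46 CPM in control and 0.784, 0.570, 0.393, 0.369 and 0.381 in treated macrophages. In monocytes it read 1.58, 0.720, 2.18, 0.930 and 0.868 CPM in controls and 0.841, 1.53, 1.44, 0.979 and 1.37 in treated libraries. The monocyte ranges covered each other, with a log2 fold change of -0.03 ± 0.38 (adjusted p = 0.961). In macrophages it was -0.84 ± 0.40 (adjusted p = 0.207). Thy1 read 2.52, 1.14, 1.74, 3.75 and 1.75 CPM in control and 1.08, 2.65, 0.617, 0.676 and 3.51 in treated macrophages. The monocyte values were 2.20, 1.94, 2.0, 3.53 and 4.18 CPM in controls and 1.17, 1.81, 2.84, 1.27 and 5.40 in treated libraries. The Thy1 values of the 2 treatments overlapped over most of their range in both cell types. Thy1 was highest, among the controls, in macrophage library 4 and monocyte library 5, the lowest of their groups for Col3a1. The fold change was -0.35 ± 0.50 (adjusted p = 0.716) in macrophages and -0.15 ± 0.49 (adjusted p = 0.851) in monocytes. In each of the 4 groups the library with the highest Thy1 also had the highest summed T, NK and B cell markers: 15.2 CPM in control macrophage library 4, 30.2 in treated macrophage library 5, 15.3 in control monocyte library 5 and 49.9 in treated monocyte library 5. Of those 10 markers 8 were tested, and 0 passed in either treatment comparison. Summed mast cell and basophil markers were also highest of their group in these 4 libraries, at 3.08, 3.37, 5.88 and 5.64 CPM in the same order. The part of any of these cells in the Thy1 counts was not tested.

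The contractile genes, which mark smooth muscle cells and myofibroblasts, were low in every library and set apart from the rest. Acta2, smooth muscle actin, read 1.79, 0.598, 0.702, 1.10 and 0.607 CPM in control and 1.05, 0.872, 0.814, 1.51 and 0.673 in treated macrophages. Monocyte libraries held 2.54, 2.76, 2.18, 3.11 and 2.94 CPM in controls and 3.82, 3.07, 2.50, 2.94 and 2.36 in treated libraries. All 10 monocyte libraries lay above all 10 macrophage libraries. The share of all tested genes that separate the cell types in this way was not counted. edgeR called 44.1% of them between the cell types in control tumours and 53.9% in treated tumours. Tagln, transgelin, which binds actin, read 2.87, 2.76, 2.26, 3.08 and 2.50 CPM in control and 3.70, 2.72, 3.14, 2.46 and 2.66 in treated macrophages. Among monocytes, the values were 3.52, 4.54, 4.45, 3.14 and 5.61 CPM in controls and 5.53, 6.10, 5.46, 5.06 and 4.75 in treated libraries. The treatment fold changes were 0.04 ± 0.29 and 0.12 ± 0.27 for Acta2 (adjusted p = 0.953 in macrophages and 0.780 in monocytes) and 0.13 ± 0.16 and 0.34 ± 0.16 for Tagln (adjusted p = 0.693 and 0.124). Tagln overlaps Pcsk7, a protease gene with 44.2 to 65.9 CPM on average in the 4 groups, and Acta2 shares near-identical coding sequence with other actins, so both values are uncertain.

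**Figure D4:**
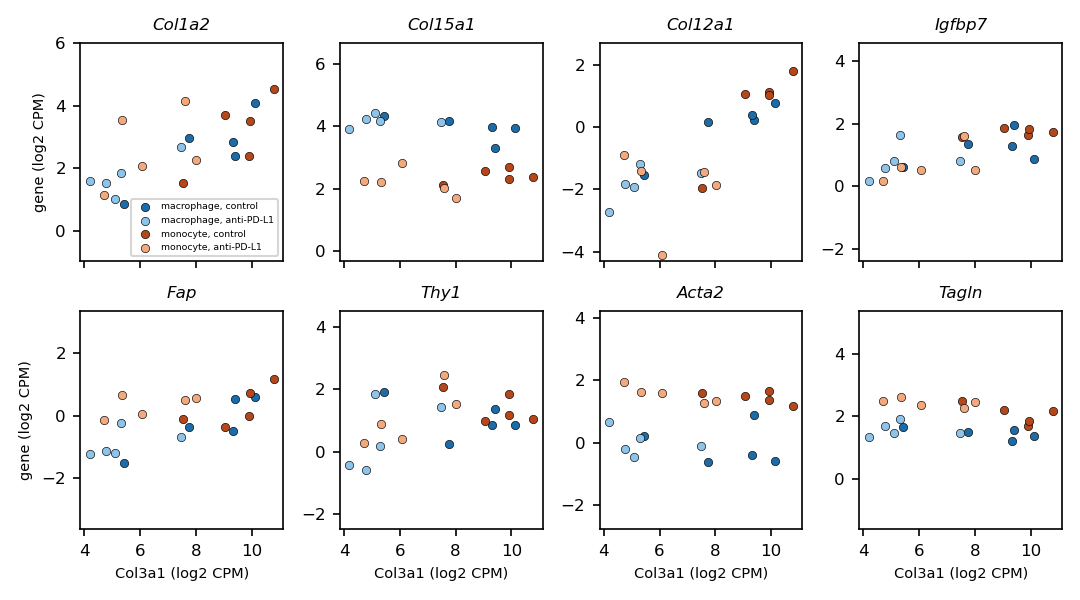
Log2 CPM of the 8 departing members (y axis, each panel spanning 7 log2 units) against Col3a1 (x axis) in the 20 libraries, coloured by group. Col15a1 separates macrophages (high) from monocytes (low), and Acta2 and Tagln lie higher in monocytes. Col12a1 and Col1a2 tend to rise with Col3a1, with scatter.

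Between the cell types, few members passed the test. In control tumours macrophages were lower than monocytes for Acta2 (-1.49 ± 0.28, adjusted p = 0.000277) and Tagln (-0.66 ± 0.16, adjusted p = 0.00265) and higher for Col15a1, so 3 of 36 were called where 20% of tested genes were lower and 24.0% higher. In treated tumours 6 were lower (Mfap5, Igfbp6, Pdgfrb, Fap, Acta2 and Tagln) and 1 higher (Col15a1), where 25.7% were lower and 28.2% higher. The median difference of the 36 was -0.57 in control and -0.90 in treated tumours, and it was below 0 for 35 and 34 members (31 without control monocyte library 3 and 30 without treated monocyte library 3). With neighbouring libraries as a replicate block, limma-voom called 60.2% of all tested genes in control and 66.3% in treated tumours. It called 10 members in control tumours, 9 of them lower in macrophages: Col5a2, Col4a1, Bgn, Igfbp6, Igfbp7, Pcolce, Pdgfrb, Acta2 and Tagln. In treated tumours the blocked fit called 8, adding Col4a1 (adjusted p = 0.0325). Limma-voom without the block called 4, beside 53.2% of all genes. edgeR's count was 4 without treated macrophage library 3 or 4 or treated monocyte library 3, beside 49.7% to 50.4% of all genes.

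A list of 70 other matrix and fibroblast genes, of which 60 were tested, was read beside the 36. In macrophages 17 were lower and 1 higher with treatment, and in monocytes 36 and 1. Both limits of the common course were met by 36 of the 60. In macrophages the lower genes with the smallest p were Vcan, Nid2, Aspn, Ogn, Lama4 and Gas1, with log2 fold changes from -3.87 (Aspn) to -1.91 (Nid2). In monocytes they were Igfbp4, Tnc, P3h3, Efemp2, Gas1 and P3h1, from -3.64 (Tnc) to -0.86 (P3h1). The higher ones were the lysyl hydroxylases Plod1 in macrophages (0.34 ± 0.08, adjusted p = 0.0396) and Plod3 in monocytes (0.40 ± 0.12, adjusted p = 0.0234). Among genes on neither list, those with at least 1 log2 CPM on average and the closest course were Ppic, Mrc2, Scara3, Mxra7, Antxr1, Npdc1, Lrig1, Mxra8, Pxdn and Fkbp10, with 93.46% to 94.95% of their variance on the members' mean.

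Markers of other cells were read beside these changes. Of 9 pericyte and smooth muscle markers only 2 (Cspg4 and Mcam) were tested, and both were lower in treated monocytes. Their summed level was 11.3 to 22.7 CPM in control and 4.89 to 10.5 in treated macrophages, and 2.0 to 12.6 and 1.04 to 3.12 in monocytes. Of 12 endothelial markers 9 were tested, with 1 lower in macrophages and 1 higher in monocytes, and their sum was 14.1 to 25.3 and 19.8 to 47.0 CPM in control and treated macrophages and 42.8 to 59.1 and 75.1 to 117 in monocytes. Their median log2 fold change was -0.91 in macrophages and -0.47 in monocytes, against the direction of the sums, in which Flt1 weighed most (mean 5.85 and 14.8 CPM in control and treated macrophages, 33.1 and 68.4 in monocytes). Of 12 epithelial markers 4 were tested and 0 passed in either treatment comparison. Their sum was 27.3 to 55.5 and 57.6 to 111 CPM in control and treated macrophages, with no overlap, and 30.6 to 43.6 and 14.7 to 45.1 in monocytes. Most of that sum was Cdh1 (mean 44.8 and 76.1 CPM in macrophages). The share of tested genes with all treated macrophage libraries above all controls was not counted. Of 13 mitochondrially encoded genes 10 were tested and 0 passed. Their sum was 17000 CPM in control macrophage library 1 and 5660 to 9200 in the other macrophage libraries, and 9140 in its neighbour, control monocyte library 4, and 3730 to 5780 in the other monocyte libraries. All 12 cell cycle genes were lower in treated monocytes and 0 in treated macrophages, and their sum was 1070 to 1320 and 501 to 1040 CPM in macrophages and 62.2 to 588 and 47.8 to 167 in monocytes. No list was at 0 in every library. The part of other cells, of cell cycling and of mitochondrial RNA in the changes of the members was not tested.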

How the data were processed

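Total RNA libraries (0.1 µg input, a stranded kit, per the labels' protocols) were aligned to GRCm38 with GSNAP, per the submitters' processing notes; no source used here gives the aligner version, annotation, counter or strand setting. Each of 20 deposited files holds, per the file headers, the authors' raw count of uniquely aligned reads for 36528 gene models and their size-factor-adjusted RPKM (nRPKM). Counts were used for tests, and nRPKM only to compare levels between genes.

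The 36 members and the other lists were chosen with earlier results of these data known. Counts were scaled by TMM (factors 0.838 to 1.18), filtered with filterByExpr to 15390 genes and fitted with edgeR 4.0.16 (R 4.3.3) as 1 mean per group; the quasi-likelihood code was tested on simulated data. Log2 CPM used a prior count of 2. Alternatives were RLE scaling, no filter, DESeq2 1.42.0, limma 3.58.1 voom with and without a replicate block, only the compared groups, and each library left out. Macrophage and monocyte libraries with consecutive sample numbers served as the block: their deviations from group means correlated at 0.218 to 0.722 in 10 pairs, although the labels state no pairing. Replicates of a group differed beyond counting noise in every pair. Values are given in every library for the departing members and the most abundant member of each of 9 roles, for up to 6 called genes per direction of the other list, and the 10 closest genes outside both are named.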

Additional observations from a re-analysis of the deposited data

Results flagged for a closer look

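In 9 of 144 sets of 5 libraries (36 members in 4 groups), 1 library stood apart from the other 4 by the gap to its nearest neighbour relative to the whole range, where chance gives about 1 in 20. All values are log2 CPM. Treated macrophage library 2 was the highest for 4 of them: Dcn at 5.81 (next 3.44), Lum at 0.52 (next -1.72), Fbln1 at 0.22 (next -1.03) and Pdgfra at 2.34 (next 0.38). The 2 low control libraries accounted for 3: Col12a1 at -1.53 in control macrophage library 4 (next 0.15) and at -1.95 in control monocyte library 5 (next 1.02), and Loxl2 at -2.99 in control monocyte library 5 (next -0.75). The other 2 were Fbln2 at -3.51 in treated macrophage library 5 (next -1.06) and Lox at -1.81 in treated monocyte library 1 (next -0.56).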

How the results depend on the processing

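The macrophage count of 19 called members was the least stable: limma-voom gave 0 and limma-voom with the replicate block 2, and leaving out 1 library gave 0 to 28. The monocyte count of 24 ranged from 9 to 26 with 1 library left out, and the 3 called between cell types in control tumours became 10 with the replicate block (3 to 4 with 1 library left out). The 7 in treated tumours became 4 with limma-voom (4 to 10 with 1 library left out). The median share on the common course (80.14% to 88.68%) and the number of departing members (7 to 9) moved little. Apart from the counts named here and in the report, the block changed no count by over 1.5 times. Among the members' 2 treatment effects, changes of sign were seen only in fold changes near 0 that never passed a test. For the difference of treatment effects, the 30 negative members became 15 with limma-voom, 13 with the replicate block and 16 to 32 with 1 library left out. Thy1 gave 0.001 in macrophages without control library 4 (-0.754 to 0.001 over all libraries left out), and 0.044, 0.025 and 0.053 in monocytes without treated library 1 or 4 or control library 5 (-0.639 to 0.053). Acta2 in macrophages gave -0.024, -0.007 and -0.040 without control library 2, 3 or 5 and -0.107 without treated library 4 (-0.107 to 0.423). Fap in monocytes gave 0.024 with limma-voom, 0.033 with the replicate block, 0.064 and 0.262 without control library 1 or 3, and 0.081 and 0.035 without treated library 1 or 4 (-0.173 to 0.262). The cause of these shifts was not tested. RLE scaling moved the median of all genes by at most 0.043 in size (-0.043 for macrophages against monocytes in control tumours). A fit with only the compared groups cannot be made for the difference of treatment effects. Members under 1 CPM in most libraries, such as Loxl2 and Mfap5, rest on few counts, as does Col12a1 in the treated libraries. That limits their precision.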

Other observations

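Some matrix genes outside the 36 shared the pattern of Col15a1 or its opposite; they were picked here after their values were seen. Col14a1, a fibril-associated collagen, was 4.71 ± 0.31 higher in log2 in macrophages than in monocytes of control tumours (edgeR, adjusted p = 9.68e-10), at 217 ± 66.3 CPM against 8.27 ± 2.31 (SD, n = 5), and 0.02% of its within-group variance lay on the members' common course. Thbs1 (-3.06 ± 0.26, adjusted p = 2.59e-08), Pi16 (-3.75 ± 0.31, adjusted p = 1.58e-08) and Fn1, fibronectin (-1.72 ± 0.30, adjusted p = 0.000129), were lower in macrophages, with 0.53% to 3.52% on the course.

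Csf1r and Cd68 were also picked after their values were seen. Csf1r, the receptor for colony-stimulating factor 1 that macrophages and monocytes carry, ran against the members inside the groups, with a slope of -0.16 and 80.49% of its variance on their mean. Cd68, a lysosomal protein of the same cells, had a slope of -0.18 and 59.50%. A negative slope with at least 50% on the line was found in 2.4% of the other tested genes. Of 11 macrophage markers 9 had a negative slope, as had 6 of 8 monocyte markers and 53% of the other tested genes, and the lists' median share on the line was 10.82% and 6.85%, beside 11.08% for the other tested genes. These are descriptions over 20 libraries that share their total count.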
